A study of Mus musculus with 9 samples.

Results

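Galectins are small proteins that bind galactose-containing sugar chains, and 4 of them were followed here with the galectin-3 binding protein in quadriceps muscle of mice that lack acid alpha-glucosidase (Gaa). The 5 genes, Lgals1, Lgals3, Lgals3bp, Lgals8 and Lgals9, were selected by gene symbol from the 13116 genes of the expression table. All 5 were found, and all 5 had values high enough to be tested. They were chosen with the levels of the same 9 libraries known, across all 3 groups, so their own differences are given as descriptions and without p-values. The Gaa enzyme breaks down glycogen inside lysosomes, and its loss causes Pompe disease, in which glycogen fills the lysosomes of muscle fibres.

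The libraries came from 18-month-old male mice, 1 library per mouse and 3 mice per group. The injections went into the tail vein when the mice were 9 months old, and the muscle was taken 9 months after that. KO_secGAA were Gaa knockout mice given AAV8-sp7-delta8-hGAAco, a vector for a secreted form of the human enzyme, whose expression the study's title places in the liver. KO_PBS were Gaa knockout mice given PBS, and WT_PBS were wild-type mice given PBS. Both knockout groups share the missing mouse enzyme, and all 3 groups share age, sex and the route and age of injection. Only KO_secGAA mice received a vector, and no group received a control vector, so effects of the vector and of the enzyme cannot be told apart. The sources used here give neither the promoter of the vector nor the knockout allele. Values are normalized counts, which are reads of a gene scaled by the authors to the size of the library. In such bulk tissue, fewer cells of a type and less RNA per cell cannot be told apart.

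The libraries held 9299156 to 15957106 reads in the genes of the table, and 1 read was worth 0.0652 to 0.0922 normalized counts. Gaa itself was at 15.1 to 16.6 normalized counts in KO_secGAA mice, 14.0 to 17.8 in KO_PBS mice and 128.6 to 296 in WT_PBS mice, which matches the labelled genotypes, and the treated and untreated knockout mice overlapped. The summed markers of mature muscle fibres were at 149200 to 164100 in KO_secGAA, 123000 to 140900 in KO_PBS and 168400 to 196900 in WT_PBS, far above every other marker list. The KO_PBS libraries had the highest scaling factors of the set. Without scaling, 89.6% of the genes that differed between KO_PBS and WT_PBS were higher in KO_PBS, against 49.9% with it.

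Galectins are made in the cytosol, while the sugar chains they bind face the inside of lysosomes and the outside of the cell. When a lysosomal membrane breaks, the chains become exposed to the cytosol and galectins gather on them, which marks the organelle for repair or for removal by autophagy. In cultured cells, galectin-3 recruits the repair factor ALIX and the ubiquitin ligase TRIM16, galectin-8 acts on the kinase mTORC1 and on autophagy receptors, and galectin-9 acts on the kinase AMPK. Galectin-1 also binds laminin and integrins outside the cell. Galectin-3 is a well known product of activated macrophages, which enter damaged muscle.

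The sugar-binding pocket of a galectin holds a short signature of histidine, any residue, asparagine, proline and arginine, and its codons show how the members differ in build. A search of the coding sequences of GENCODE M21, on the build GRCm38, found 1 signature in Lgals1, 1 in Lgals3, 2 in Lgals8 and 2 in Lgals9. The reading frames searched encode 135 residues for Lgals1, 264 for Lgals3, 325 for Lgals8 and 353 for Lgals9. No signature was found in the 577 residues of Lgals3bp, a secreted glycoprotein that is named for binding galectin-3 and is not itself a galectin. The codons of the signature stand in capitals in the 51-base stretches of coding sequence printed here. They lie at chr15:78929661-78929711 on the plus strand for Lgals1 and at chr14:47384627-47384677 on the plus strand for Lgals3. Those of Lgals8 lie at chr13:12454852-12454902 and chr13:12447231-12447281, and those of Lgals9 at chr11:78973105-78973155 and chr11:78965779-78965829, all on the minus strand.
Lgals1: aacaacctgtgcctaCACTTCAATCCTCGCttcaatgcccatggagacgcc
Lgals3: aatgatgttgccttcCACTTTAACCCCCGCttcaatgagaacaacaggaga
Lgals8 first site: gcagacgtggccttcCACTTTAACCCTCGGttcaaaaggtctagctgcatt
Lgals8 second site: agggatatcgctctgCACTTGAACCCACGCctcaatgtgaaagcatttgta
Lgals9 first site: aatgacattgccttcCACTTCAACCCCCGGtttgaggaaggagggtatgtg
Lgals9 second site: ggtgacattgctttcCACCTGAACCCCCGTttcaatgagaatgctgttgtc
By this search Lgals1 and Lgals3 have a single site, and Lgals8 and Lgals9 have a pair of sites.

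Lgals3, the single-site galectin most used as a mark of broken lysosomes, was the member that differed most between the groups. Its level was 19.31, 15.08 and 8.54 normalized counts in KO_secGAA mice, 86.6, 88.3 and 64.86 in KO_PBS mice, and 8.535, 6.64 and 6.921 in WT_PBS mice. Every KO_PBS mouse stood far above every mouse of the other groups. The treated mice lay above the wild-type mice without overlap, but the lowest treated mouse and the highest wild-type mouse were nearly level, at 118 and 124 reads. The log2 difference of KO_PBS from WT_PBS was 3.35 ± 0.25 (SE, n = 3 each, 95% interval 2.78 to 3.92), a 10.2-fold higher level. KO_secGAA differed from KO_PBS by -2.50 ± 0.25 on the log2 scale (95% interval -3.07 to -1.93), a 5.66-fold lower level. Both differences are larger than the spread between mice, and both use the same KO_PBS libraries, so a high level in those enters each. Among the 13089 genes tested, Lgals3 held rank 26 from the top for KO_PBS against WT_PBS and rank 10 from the bottom for KO_secGAA against KO_PBS.

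Treated mice stood between the other groups in Lgals3. KO_secGAA stood above WT_PBS by 0.85 ± 0.25 (log2, SE, 95% interval 0.28 to 1.42). Without 1 library at a time this difference ranged from 0.60 to 1.17, the highest without KO_secGAA replicate 3, the lowest treated mouse. Treated replicates 1 and 2 had 209 and 172 reads of Lgals3, against 124, 94 and 93 in the wild-type libraries, which are deeper.

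**Figure D1:**
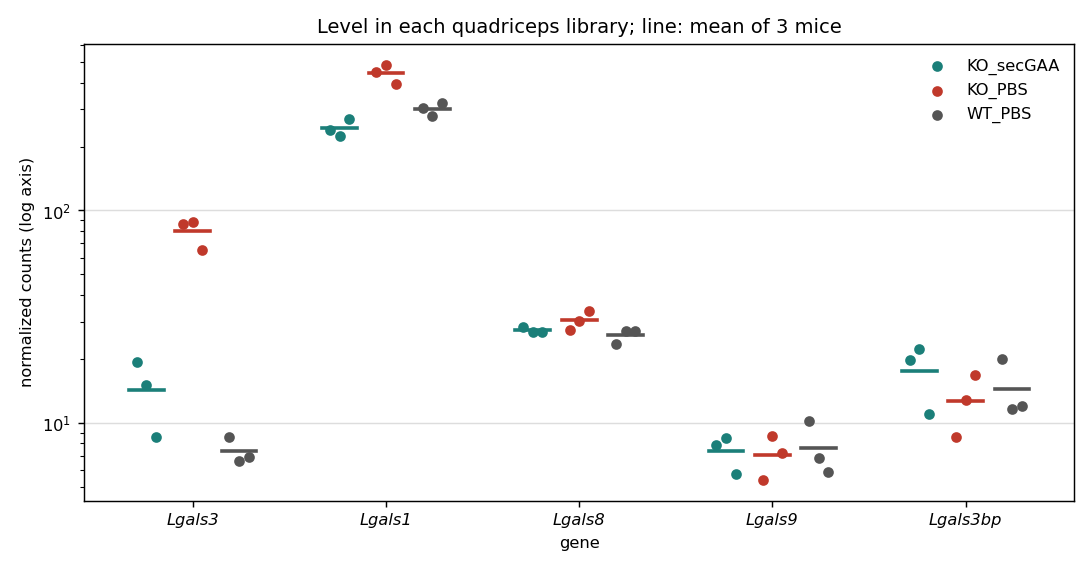
Level of each member in each library, in normalized counts on a log axis, with the genes along the horizontal axis; points are mice, coloured by group, and short lines are means of 3 mice. Lgals3 lies between 8.54 and 19.31 in KO_secGAA, between 64.86 and 88.3 in KO_PBS and between 6.64 and 8.535 in WT_PBS, while the groups of Lgals9 and Lgals3bp overlap.

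Lgals1, the gene of the small secreted and cytosolic galectin-1, had the next largest difference, on a far higher level. It was at 238.5, 224.1 and 268.4 normalized counts in KO_secGAA mice, 450.0, 485.2 and 392.5 in KO_PBS mice, and 304.7, 279.3 and 321.2 in WT_PBS mice. In normalized counts the 3 groups did not overlap, and the treated mice were the lowest. KO_PBS was 1.46-fold higher than WT_PBS, a log2 difference of 0.55 ± 0.11 (SE, 95% interval 0.31 to 0.79). KO_secGAA was 1.81-fold lower than KO_PBS, a log2 difference of -0.86 ± 0.11 (SE, 95% interval -1.10 to -0.62). The treated mice thus lay on the other side of the wild-type mice, by -0.31 ± 0.11 on the log2 scale (SE, 95% interval -0.55 to -0.07). That difference did not pass over all genes, and without scaling it was -0.147. GENCODE lists processed pseudogenes of Lgals1 that can share its reads, so its level is uncertain to that extent.

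Lgals8, the galectin with a pair of sugar-binding sites that acts on mTORC1 and autophagy receptors, hardly varied. Its level was 28.34, 26.79 and 26.92 normalized counts in KO_secGAA mice, 27.5, 30.06 and 33.51 in KO_PBS mice, and 23.55, 26.94 and 27.13 in WT_PBS mice. All 9 libraries lay within a narrow band, although the KO_PBS mice just cleared the WT_PBS mice. The log2 difference of KO_PBS from WT_PBS was 0.22 ± 0.10 (SE, 95% interval -0.001 to 0.45), and without scaling it was 0.54. KO_secGAA differed from KO_PBS by -0.14 (95% interval -0.37 to 0.08) and from WT_PBS by 0.08 (95% interval -0.14 to 0.31) on the log2 scale. The 3′ end of Lgals8 overlaps the end of Heatr1, a ribosome biogenesis gene on the opposite strand, over 875 bases at chr13:12439415-12440289. The sources used here do not say whether reads were counted by strand, so reads in the overlap could go to either gene. Heatr1 was at 11.8 ± 0.794 normalized counts in KO_secGAA, 11.9 ± 0.358 in KO_PBS and 10.1 ± 0.554 in WT_PBS (SD, n = 3 each).

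Lgals9, the other galectin with a pair of sites, had low values in all 3 groups, and its groups overlapped in every comparison. It was at 7.879, 8.523 and 5.729 normalized counts in KO_secGAA mice, 5.382, 8.629 and 7.217 in KO_PBS mice, and 10.18, 6.85 and 5.885 in WT_PBS mice. The log2 difference of KO_PBS from WT_PBS was -0.09 (95% interval -0.62 to 0.44), that of KO_secGAA from KO_PBS 0.06 (95% interval -0.47 to 0.59) and that of KO_secGAA from WT_PBS -0.03 (95% interval -0.56 to 0.50).

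Lgals3bp, the ligand that is not a galectin, varied between the mice of every group more than between the groups. It was at 19.68, 22.16 and 10.99 normalized counts in KO_secGAA mice, 8.579, 12.81 and 16.78 in KO_PBS mice, and 19.91, 11.56 and 11.96 in WT_PBS mice. Its coefficient of variation within a group was 33.3% in KO_secGAA, 32.2% in KO_PBS and 32.6% in WT_PBS, against 3.14%, 9.94% and 7.80% for Lgals8 in the same order of groups. The log2 difference of KO_PBS from WT_PBS was -0.18 (95% interval -0.89 to 0.52), that of KO_secGAA from KO_PBS 0.44 (95% interval -0.26 to 1.15) and that of KO_secGAA from WT_PBS 0.26 (95% interval -0.44 to 0.96). Lgals3bp and Lgals9 moved together from mouse to mouse within the groups, with a Pearson r of 0.86 between their deviations from the group means over the 9 libraries, which share their depth and composition. Between Lgals3 and Lgals1, the members that differed most between groups, the same r was -0.13.

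Of the 5 members, 2 passed the test upward and 0 downward in KO_PBS against WT_PBS, where 10.9% of all genes tested rose and 11.0% fell. In KO_secGAA against KO_PBS, 0 passed upward and 2 downward, where 1.37% of all genes rose and 2.31% fell. In KO_secGAA against WT_PBS, 0 of the 5 passed in either direction, where 1.83% of all genes rose and 1.89% fell. In that last comparison 1 member was higher and 1 lower at an unadjusted p under 0.05, 0 passed with edgeR and 1, Lgals3, passed with DESeq2. Lgals3 also passed there in the fit without 1 of the libraries. Nothing is read from these counts, since the levels in all 3 groups chose the genes. The members that passed were Lgals1 and Lgals3 in both of the comparisons that use KO_PBS.

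**Figure D2:**
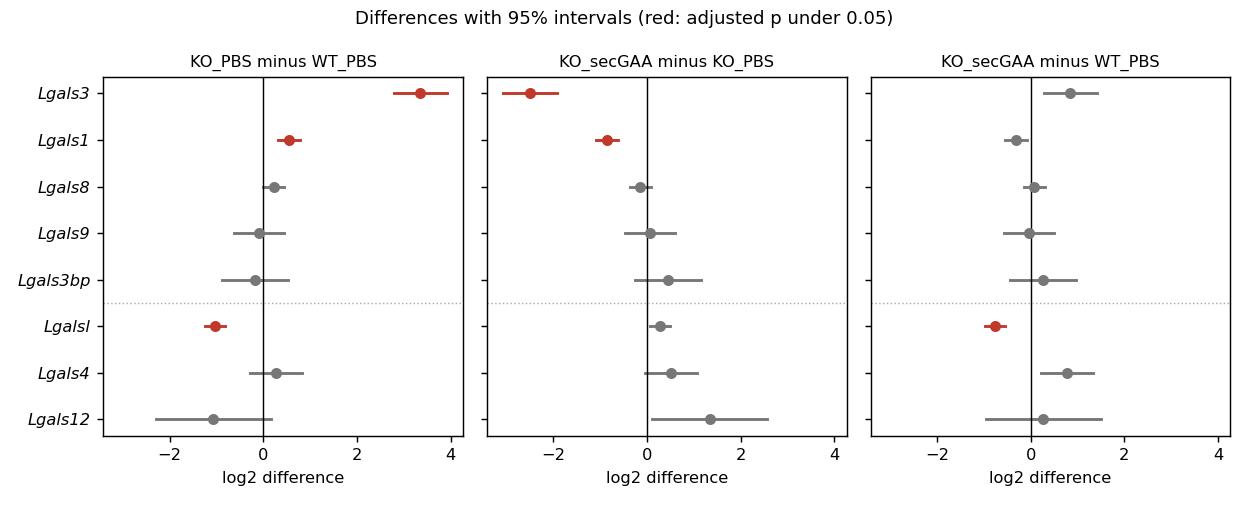
Log2 difference of the 5 members (above the dotted line) and of 3 other galectin-family genes (below it) in each comparison, with 95% intervals; red marks adjusted p under 0.05 in limma over all genes. Lgals3 reaches 3.35 in KO_PBS minus WT_PBS and -2.50 in KO_secGAA minus KO_PBS, while Lgalsl lies at -1.04 and 0.29.

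Levels of different genes were compared after division by exonic length, in normalized counts per kilobase of exon. In every group Lgals1 was the highest member, at 269.8 ± 25.0 in KO_secGAA, 490.1 ± 51.8 in KO_PBS and 334.1 ± 23.4 in WT_PBS (SD, n = 3 each), and Lgals9 had the lowest mean. What changed was the place of Lgals3. Per kilobase, Lgals3 was at 7.70 ± 2.92 in KO_secGAA, 43.0 ± 7.03 in KO_PBS and 3.96 ± 0.550 in WT_PBS. In WT_PBS mice it was below Lgals8 (7.02 ± 0.547) and within the spread of Lgals3bp (5.09 ± 1.66) and Lgals9 (3.57 ± 1.05). In KO_PBS mice it was second to Lgals1, far above Lgals8 (8.23 ± 0.818), Lgals3bp (4.47 ± 1.44) and Lgals9 (3.31 ± 0.762). In KO_secGAA mice Lgals3, Lgals8 (7.42 ± 0.233) and Lgals3bp (6.19 ± 2.06) did not differ beyond their spread. Lgals9 (3.45 ± 0.685) lay below Lgals3 and Lgals8 in every mouse of that group, and its range overlapped that of Lgals3bp. Per kilobase, Lgals3 came to 1.55% to 3.94% of Lgals1 in KO_secGAA mice, 8.03% to 9.35% in KO_PBS mice and 1.05% to 1.36% in WT_PBS mice.

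A further gene of the family outside the selection went the opposite way. Lgalsl encodes a galectin-related protein whose reading frame held no signature codons in the search. It was at 48.8, 45.41 and 49.33 normalized counts in KO_secGAA mice, 39.37, 34.87 and 43.62 in KO_PBS mice, and 85.04, 78.17 and 80.28 in WT_PBS mice. Both knockout groups were below every wild-type mouse. Lgalsl fell in KO_PBS against WT_PBS by 1.04 on the log2 scale (SE 0.095, limma adjusted p = 9.94e-05) and was also lower in KO_secGAA than in WT_PBS, by -0.76 (adjusted p = 0.00403). The treated mice were above the KO_PBS mice by 0.29 without passing (adjusted p = 0.139). Lgals4, a galectin of gut epithelium, was at 4.193, 6.775 and 6.882 normalized counts in KO_secGAA, 5.839, 3.113 and 3.356 in KO_PBS and 3.119, 3.267 and 3.22 in WT_PBS. Lgals12, a galectin of fat cells, was at 3.64, 7.387 and 1.693 in KO_secGAA, 0.8155, 2.325 and 0.6895 in KO_PBS and 5.656, 3.056 and 1.369 in WT_PBS. Neither Lgals4 nor Lgals12 passed in any comparison, and their smallest adjusted p was 0.114, for Lgals4 in KO_secGAA against WT_PBS. Other galectin genes were not analysed here.

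Galectin-3 is a macrophage product as well as a mark of lysosomes, so the macrophage markers of the same libraries are given beside it. The 22 macrophage markers summed to 181.5 to 387.3 normalized counts in KO_secGAA, 317 to 454.9 in KO_PBS and 135.5 to 215.7 in WT_PBS, and none of the 22 was at 0 in any library. In KO_PBS against WT_PBS, 6 of the 22 rose and 0 fell, with a median log2 difference of 0.85 against 0.01 for all genes. Of all genes tested, 10.9% rose and 11.0% fell. Without KO_PBS replicate 2 the count was 4, without KO_secGAA replicate 3 it was 10, with DESeq2 or with 2 groups in the fit it was 10, and without scaling it was 14. Without WT_PBS replicate 3, 5 rose and 1 fell. At an unadjusted p under 0.05 in limma, 13 of the 22 were higher and 1 was lower. The lowest log2 difference was that of Lyve1, at -0.68. The largest rise was that of Mpeg1, a pore protein of phagocytes, at 18.5 ± 4.70 normalized counts in KO_PBS and 3.89 ± 1.38 in WT_PBS (SD, n = 3 each; log2 difference 2.12, adjusted p = 0.00116). Cd68, a lysosomal glycoprotein of macrophages, was at 13.3 ± 1.33 in KO_PBS and 3.18 ± 1.08 in WT_PBS (log2 difference 1.94, adjusted p = 0.000383). All 22 differences lay below the 3.35 of Lgals3. Since Lgals3 was chosen with these levels known, nothing is read from its place among the markers.

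In KO_secGAA against KO_PBS, 0 of the 22 macrophage markers rose and 1 fell, and the median log2 difference was -0.23. Of all genes tested, 1.37% rose and 2.31% fell. At an unadjusted p under 0.05, 0 of the 22 rose and 3 fell. The marker that fell was Cd68, to 6.55 ± 1.57 normalized counts in KO_secGAA against 13.3 ± 1.33 in KO_PBS (log2 difference -0.99, adjusted p = 0.0420), a call lost without any 1 of 7 of the libraries. The summed markers in KO_secGAA were 0.744 of those in KO_PBS, while Lgals3 was at 0.179 of its KO_PBS level. Lgals3 per Cd68 was 3.30, 1.81 and 1.57 in KO_secGAA mice, 7.12, 5.98 and 4.99 in KO_PBS mice, and 1.93, 2.74 and 2.56 in WT_PBS mice. The ratio was higher in each KO_PBS mouse than in any other mouse, and treated and wild-type mice overlapped. In KO_secGAA against WT_PBS, 2 of the 22 rose, Mpeg1 by 1.37 (adjusted p = 0.0373) and Cd68 by 0.95 (adjusted p = 0.0469) on the log2 scale. Both calls were lost without KO_secGAA replicate 1 or 2, among others. Of all genes tested, 1.83% rose in that comparison. The median of the 22 was 0.64 there, and 4 of them lay above the 0.85 of Lgals3. The part of macrophages in the Lgals3 level was not tested.

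Markers of regenerating muscle fibres had a higher sum in every KO_PBS mouse than in any other mouse. They summed to 216.4 to 268.5 normalized counts in KO_secGAA, 470.8 to 613.5 in KO_PBS and 174.7 to 263.8 in WT_PBS, with none of the 11 at 0. In KO_PBS against WT_PBS, 9 of the 11 tested rose, with a median log2 difference of 2.01, where 10.9% of all genes tested rose. In KO_secGAA against KO_PBS 3 fell, with a median of -1.25, where 2.31% of all genes fell. With DESeq2 or without scaling 6 of the 11 fell. In KO_secGAA against WT_PBS 4 of the 11 rose and 0 fell, with a median of 0.76, where 1.83% of all genes rose. Without KO_secGAA replicate 2 the count of 4 was 1. Runx1, a transcription factor raised in denervated and damaged muscle, was at 9.34 ± 0.485 normalized counts in KO_secGAA and 2.59 ± 0.215 in WT_PBS (SD, n = 3 each; log2 difference 1.67, adjusted p = 0.000499), and its call held without each single library. Myl4, an embryonic myosin light chain, rose by 2.33 (adjusted p = 0.0120), a call lost without KO_secGAA replicate 2, and Ncam1 by 1.09 (adjusted p = 0.0302), a call lost without any 1 of 5 of the libraries. Ncam1, an adhesion molecule of regenerating and denervated fibres, was at 8.53 ± 0.768 normalized counts in KO_secGAA, 34.7 ± 12.2 in KO_PBS and 3.76 ± 0.431 in WT_PBS (SD, n = 3 each). Its log2 difference of KO_PBS from WT_PBS was 2.99 (adjusted p = 3.87e-05) and that of KO_secGAA from KO_PBS -1.91 (adjusted p = 0.00314). The 11 markers ranged from 0.81 to 3.23 in the first comparison and from -1.91 to -0.49 in the second. Lgals3 was at 3.35 and -2.50. It was chosen with these levels known, so nothing is read from its place among these markers. Whether the fibres or the macrophages hold the Lgals3 transcripts was not tested.

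Markers of other cell types were counted in the same way. In KO_PBS against WT_PBS, 10.9% of all genes tested rose and 11.0% fell. A list count near these shares is not read as a result about that cell type. Of 12 markers of lipid-handling Trem2-type macrophages, 4 rose and 1 fell in KO_PBS against WT_PBS, with Gpnmb, a glycoprotein of stressed lysosomes, at 14.1 ± 2.06 normalized counts in KO_PBS and 5.32 ± 0.744 in WT_PBS (SD, n = 3 each; log2 difference 1.32, adjusted p = 0.00134). Without KO_PBS replicate 2 the count of 4 was 2, and without scaling it was 7. The marker that fell was Igf1 (log2 difference -1.055, adjusted p = 0.0429), a call lost without any 1 of 6 of the libraries. The summed Trem2-type markers overlapped, at 725.6 to 1052 normalized counts in KO_PBS and 737.7 to 959 in WT_PBS. Of 12 fibroblast markers 1 rose, of 8 satellite cell markers 2 rose, and of 9 markers of smooth muscle and pericytes 1 rose and 1 fell. In the smooth muscle and pericyte list the risen count was 0 without KO_PBS replicate 2 or WT_PBS replicate 3, and the fallen count was 0 without the scaling factors. The fibroblast count was 6 without KO_PBS replicate 1 and 5 without the scaling factors, and the satellite cell count was 0 without WT_PBS replicate 3 and 5 without the scaling factors. Of 10 endothelial markers 4 fell, and 6 of 12 markers of mature fibres fell while 1 rose. Without the scaling factors, 0 endothelial and 0 mature fibre markers fell. The endothelial count was 1 without KO_PBS replicate 1, KO_PBS replicate 2 or WT_PBS replicate 2, and 2 without WT_PBS replicate 1. The mature fibre count was 0 without WT_PBS replicate 3 and 1 to 4 without any 1 of the other libraries except WT_PBS replicate 2. Of 7 adipocyte markers 1 fell, and of 4 markers of B and plasma cells 1 fell. Of the list of neutrophils and mast cells only 4 genes were tested, the mast cell genes Mcpt4, Cpa3, Kit and Cma1, and neutrophil markers were not analysed here. Of these 4, 0 passed with limma, DESeq2 or edgeR, and before adjustment 0 had a limma p under 0.05. The 4 markers of T and NK cells that could be tested summed to 10.9 to 13.5 normalized counts in KO_secGAA, 6.98 to 12.7 in KO_PBS and 11.4 to 20.1 in WT_PBS. Of these 4 markers, 1 rose and 2 fell in KO_PBS against WT_PBS. Without 1 library at a time, the counts of adipocyte and of B and plasma cell markers that fell were each 0 or 1, and that of T and NK cell markers was 0 to 2. Without the scaling factors 0 adipocyte and 0 T and NK cell markers fell, and with edgeR 0 B and plasma cell markers fell. In KO_secGAA against KO_PBS, 2 of the 12 fibroblast markers and 1 of the 8 satellite cell markers fell. Of all genes tested, 2.31% fell there. The fibroblast marker Lum had a log2 difference of 1.56 in KO_PBS against WT_PBS (adjusted p = 0.000331). In KO_secGAA against KO_PBS it was at -1.23 (adjusted p = 0.00643), and both calls held without each single library.

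**Figure D3:**
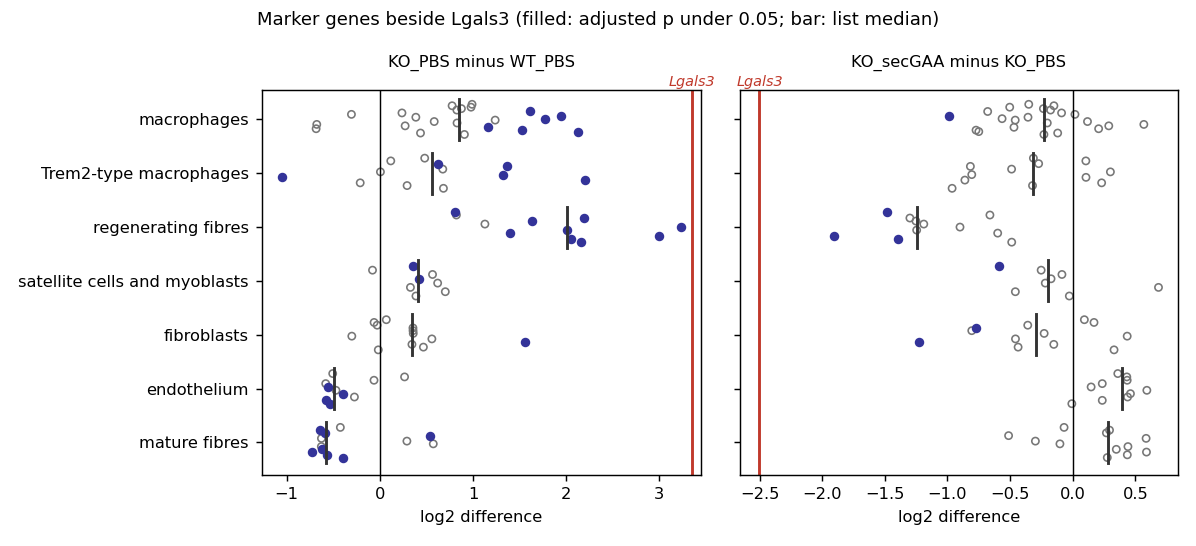
Log2 difference of each tested marker gene of 7 cell type lists in KO_PBS minus WT_PBS and in KO_secGAA minus KO_PBS; filled points have limma adjusted p under 0.05, black bars are list medians and the red line is Lgals3. The line at 3.35 lies to the right of all markers shown, and the line at -2.50 to the left of all. Lgals3 was chosen with these levels known.

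The proteins whose sugar chains galectins bind, and the enzymes that build those chains, were a list of 15 genes. In KO_PBS against WT_PBS, 6 of the 15 rose and 1 fell, with a median log2 difference of 0.37. Of all genes tested, 10.9% rose and 11.0% fell. The count of 6 was the same without any 1 library. Cd63, a membrane protein of late endosomes, was at 339 ± 12.9 normalized counts in KO_PBS and 135.6 ± 15.6 in WT_PBS (SD, n = 3 each; log2 difference 1.32, adjusted p = 5.47e-05). Lamp2, a heavily glycosylated lysosomal membrane protein, was at 118.0 ± 11.1 in KO_PBS and 69.2 ± 3.50 in WT_PBS (log2 difference 0.76, adjusted p = 0.000566). The branching enzymes of N-linked chains split: Mgat4b rose by 1.45 (adjusted p = 0.000325) and Mgat4a fell by 0.90 (adjusted p = 0.0106) on the log2 scale.

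In KO_secGAA against KO_PBS, 3 of these 15 genes fell and 1 rose, and without scaling 5 fell and 0 rose. With scaling, 2.31% of all genes tested fell and 1.37% rose. Cd63 fell to 193.7 ± 20.0 normalized counts in KO_secGAA, against 339 ± 12.9 in KO_PBS (log2 difference -0.81, adjusted p = 0.00497). Lamp1, the other main lysosomal membrane glycoprotein, was at 464.9 ± 29.1 in KO_secGAA and 706.5 ± 63.1 in KO_PBS (log2 difference -0.60, adjusted p = 0.0107). Mgat4b fell by 0.86 on the log2 scale (adjusted p = 0.0218), and St3gal6, a sialyltransferase, rose by 0.40 (adjusted p = 0.0462). The calls of Mgat4b, Lamp1 and St3gal6 were each lost without KO_secGAA replicate 2, which left a count of 1 fallen gene, and that of St3gal6 was lost without any 1 of 8 of the libraries. Cd63 and Lamp2 remained above WT_PBS in KO_secGAA, by 0.51 (adjusted p = 0.0322) and 0.49 (adjusted p = 0.0220), and both calls were lost without WT_PBS replicate 2 or 3.

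At the cell surface, where secreted galectins act, 7 of the 12 partner genes tested, of 14 listed, rose and 1 fell in KO_PBS against WT_PBS, with a median log2 difference of 0.62. Of all genes tested, 10.9% rose and 11.0% fell. Without WT_PBS replicate 3 the count of 7 was 5, and without scaling 9 of the 12 rose and 0 fell. Itgb1, the beta-1 integrin that binds galectin-1, was at 253.5 ± 7.84 normalized counts in KO_PBS and 169.4 ± 15.9 in WT_PBS (SD, n = 3 each; log2 difference 0.58, adjusted p = 0.00261). Tlr4, a receptor of innate immunity, was at 7.14 ± 1.64 in KO_PBS and 2.34 ± 0.579 in WT_PBS (log2 difference 1.43, adjusted p = 0.00211). Nrp1, a receptor for vascular growth factors, fell by 0.76 (adjusted p = 0.0363), a call lost without KO_PBS replicate 1 or 2, among others. In KO_secGAA against KO_PBS, 0 of the 12 passed with limma, edgeR or DESeq2, 3 fell without scaling, and at an unadjusted p under 0.05 in limma 1 was higher and 2 were lower. In KO_secGAA against WT_PBS, 0 of the 12 passed with limma or edgeR, 4 rose with DESeq2 and 6 without scaling. At an unadjusted p under 0.05 in limma 8 were higher. Of all genes tested, 1.37% rose and 2.31% fell against KO_PBS, and 1.83% rose and 1.89% fell against WT_PBS.

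The response to a broken lysosome was covered by 85 tested genes of 5 lists. These were removal by autophagy, repair by ESCRT proteins, repair by lipid transfer, LC3 conjugation, and the mTORC1 and AMPK signalling that galectin-8 and galectin-9 touch. Whether these genes act before, after or apart from galectins was not tested. In KO_PBS against WT_PBS, 19 of the 85 rose and 3 fell, with a median log2 difference of 0.12. Over all genes tested, 10.9% rose and 11.0% fell in this comparison. Without KO_PBS replicate 2 or WT_PBS replicate 3 the 19 became 12, and without scaling 61 rose and 0 fell. Sqstm1, the autophagy receptor p62, was at 1331 ± 141 normalized counts in KO_PBS and 662.9 ± 120.8 in WT_PBS (SD, n = 3 each; log2 difference 1.01, adjusted p = 0.00100). Pdcd6ip, which encodes ALIX, the repair factor that galectin-3 recruits, was at 55.5 ± 2.28 in KO_PBS and 41.4 ± 1.22 in WT_PBS (log2 difference 0.42, adjusted p = 0.00627). Trim16, the ubiquitin ligase partner of galectin-3, was at 30.4 ± 5.25 in KO_PBS and 28.9 ± 3.81 in WT_PBS and did not pass (adjusted p = 0.754).

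By list, 5 of 17 genes of removal by autophagy rose and 1 fell in KO_PBS against WT_PBS. The shares over all genes tested were 10.9% risen and 11.0% fallen. Leaving out single libraries gave 2 to 4 risen genes of removal by autophagy, the lowest without KO_PBS replicate 1 or 2 or WT_PBS replicate 1 or 3. Of 24 ESCRT genes 5 rose and 0 fell, led by Hgs, which gathers cargo on endosomes (log2 difference 0.83, adjusted p = 0.00123). Without WT_PBS replicate 3 the ESCRT count was 2. Of 12 lipid transfer genes 2 rose, the more certain being Osbpl5, an oxysterol-binding protein relative (0.83, adjusted p = 0.00123). The other, Osbpl8, lost its call without 7 of the libraries, 1 at a time. Of 14 genes of LC3 conjugation 4 rose and 1 fell, with Map1lc3a at 394.7 ± 46.7 normalized counts in KO_PBS and 234.6 ± 7.35 in WT_PBS (log2 difference 0.74, adjusted p = 0.00106). Without KO_PBS replicate 2 the count of 4 was 2. Without scaling, the risen genes numbered 14 of removal by autophagy, 19 of ESCRT, 7 of lipid transfer and 9 of LC3 conjugation, and 0 fell in these lists.

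The signalling list of 18 genes had 3 that rose and 1 that fell in KO_PBS against WT_PBS. Of all genes tested, 10.9% rose and 11.0% fell. In the signalling list 5 rose and 2 fell with DESeq2, and 12 rose and 0 fell without scaling. Prkaa1, which encodes a catalytic alpha subunit of AMPK, was at 26.8 ± 2.25 normalized counts in KO_PBS and 14.5 ± 2.17 in WT_PBS (SD, n = 3 each; log2 difference 0.87, adjusted p = 0.00112). The 2 lysosomal transcription factors of the list went apart, with Tfe3 at 0.55 (adjusted p = 0.00933) and Tfeb at -0.47 (adjusted p = 0.00438) on the log2 scale. Without scaling Tfeb was at -0.15 and did not pass. Mcoln1, a lysosomal calcium channel, did not pass at -0.02 (adjusted p = 0.931).

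In KO_secGAA against KO_PBS, 0 of the 85 genes rose and 5 fell, with a median log2 difference of -0.11. Over all genes tested, 1.37% rose and 2.31% fell. Without KO_secGAA replicate 2 or KO_PBS replicate 2 the count of 5 was 1. With DESeq2 10 fell, and without scaling 19 fell. At an unadjusted p under 0.05, 1 was higher and 19 were lower. Hgs was at 22.4 ± 3.65 normalized counts in KO_secGAA and 36.8 ± 1.35 in KO_PBS (SD, n = 3 each; log2 difference -0.71, adjusted p = 0.0124), and its call held without each single library. The others were Prkaa1, Osbpl5, Ubxn6 and Gabarap, at -0.68, -0.56, -0.45 and -0.40, and each of these lost its call without at least 4 of the libraries, 1 at a time. Sqstm1 was at 911.3 ± 71.9 in KO_secGAA and 1331 ± 141 in KO_PBS, and its difference of -0.54 did not pass (adjusted p = 0.0647). In KO_secGAA against WT_PBS, 2 of the 85 rose and 1 fell, where 1.83% of all genes tested rose and 1.89% fell. With DESeq2 4 of the 85 rose and 2 fell, and without scaling 10 rose and 0 fell. Map1lc3a was at 373.2 ± 29.6 in KO_secGAA and 234.6 ± 7.35 in WT_PBS (log2 difference 0.67, adjusted p = 0.0109), Gabarapl1 rose by 0.76 (adjusted p = 0.0402) and Tfeb fell by 0.45 (adjusted p = 0.0227). Without WT_PBS replicate 3, all 3 of these calls were lost.

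**Figure D4:**
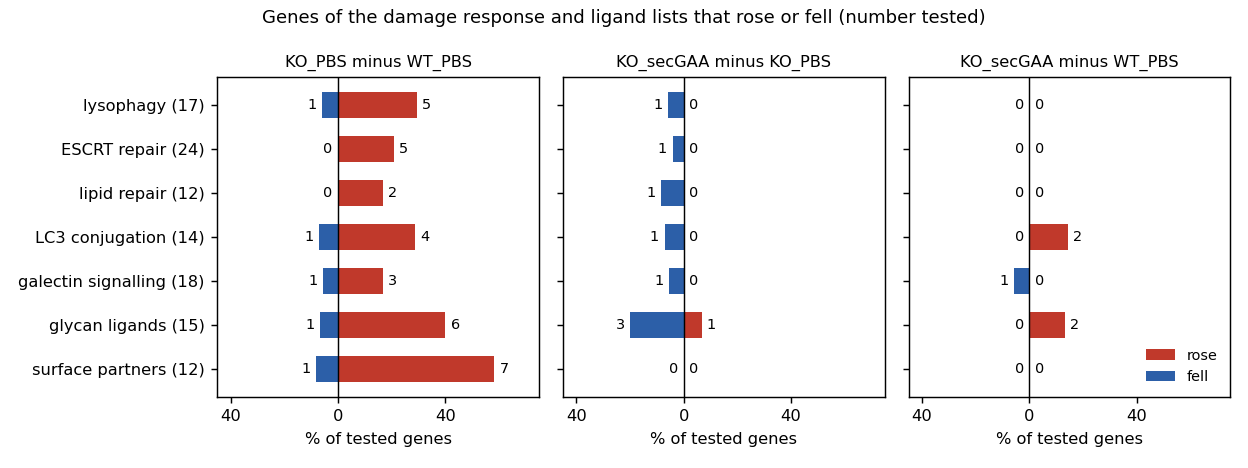
Share of tested genes of 7 lists that rose (red, to the right) or fell (blue, to the left) at limma adjusted p under 0.05, in percent, with the number of genes at each bar and the number tested in brackets. In KO_PBS minus WT_PBS the surface partners have 7 of 12 risen and the glycan ligands 6 of 15, while in KO_secGAA minus KO_PBS the surface partners have 0. Over all genes tested, 10.9% rose and 11.0% fell in the first of these comparisons, and 1.37% rose and 2.31% fell in the second.

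The genes whose levels followed each member most closely were found by Pearson r on log2 values over the 9 libraries, as a description in which group differences and shared library composition both count. For Lgals3 they were Gys2 (r = 0.988), the liver form of glycogen synthase, then Apol9a (0.983), Nras (0.981), Vat1 (0.981) and Mdfi (0.980). Over all genes tested, the 95th percentile of r was 0.8495 with Lgals3. With Lgals1, Lgals3bp, Lgals8 and Lgals9 it was 0.7053, 0.6067, 0.7202 and 0.5794. Apol9a and Mdfi were near the floor in WT_PBS, at means of 0.317 and 0.386 normalized counts. Gys2 was at 2.40 normalized counts in KO_secGAA, 5.22 in KO_PBS and 1.80 in WT_PBS, and Vat1, a vesicle membrane protein, at 26.4, 73.9 and 15.3 in the same order of groups. For Lgals1 the closest was Cdh15 (0.973), the cadherin of satellite cells, at 17.1 in KO_secGAA, 25.8 in KO_PBS and 20.0 in WT_PBS. For Lgals3bp it was Nlrc5 (0.961), the activator of MHC class I genes, for Lgals8 Trrap (0.971), a subunit of histone acetylase complexes, and for Lgals9 Lrrc3b (0.948). By deviations from the group means, Nlrc5 followed Lgals3bp at 0.979 and Gys2 followed Lgals3 at 0.829. Both genes were picked by r over the same libraries, so these values add no separate support.

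A promoter window of Lgals3, the member with the largest difference, is shown from RefSeq on GRCm38.p6, with the single motif match in capitals. It holds the 250 bases before the start annotated there, chr14:47373610-47373859 on the plus strand. GENCODE M21 starts the gene further upstream, at chr14:47367751, so the window lies within that gene model.
Lgals3 promoter: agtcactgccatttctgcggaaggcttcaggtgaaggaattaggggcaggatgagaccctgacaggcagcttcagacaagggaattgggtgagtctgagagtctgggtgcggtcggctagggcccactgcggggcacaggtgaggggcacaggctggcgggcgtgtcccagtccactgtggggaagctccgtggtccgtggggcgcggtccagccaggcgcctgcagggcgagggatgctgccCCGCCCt
Windows of this kind were given for 4 of the 5 members, and Lgals1 is named only. The Lgals8 window, chr13:12461739-12461988 on the minus strand, also lies within its GENCODE gene model, which reaches chr13:12464944. The motifs searched on both strands were the E-box CACGTG, the M-box core TCATGTG, the AP-1 site TGANTCA, the Runx site TGTGGT and the GC box GGGCGG. In all 32851 promoter windows the shares with a match were 6.02% for the E-box, 3.25% for the M-box core, 6.75% for AP-1, 14.0% for Runx and 32.7% for the GC box. Lgals3 held a GC box 7 bases before the start, Lgals3bp an M-box core 30 bases before it and Lgals8 a Runx match 27 bases before it, and Lgals9 held none. A match describes these letters only and says nothing of binding.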

How the data were processed

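Polyadenylated RNA of quadriceps muscle was sequenced as single-end reads of 61 bp on a HiSeq2500, per the labels' protocols. The deposited table holds a normalized signal for 13116 genes in 9 columns, called normalized counts per the file headers. Per the submitters' processing notes, the tools were edgeR, limma, RSEM, cutadapt and CASAVA and the genome build was GRCm38. Their roles, their versions and the strand setting of the counting are not stated. All 118044 values (100%, tolerance 1e-06) came from whole reads. Each is the reads plus 0.5, divided by 1 plus the product of library total and TMM factor, and scaled by 1000000. That gave the deposited values back within 5.11e-15.

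From these, limma 3.58.1 in R 4.3.3 was run on log2(value + 0.5) with group means, trended empirical Bayes moderation and 6 residual degrees of freedom. Folds are on that scale, which understates those of low genes. A gene was tested where 3 or more libraries had values of 1 or more (13089 genes), and a gene is said to have risen or fallen at a Benjamini-Hochberg adjusted p under 0.05 over all of them. An adjusted p with no tool named is that of limma. The count test on the recovered reads, edgeR 4.0.16, called 2841 genes for KO_PBS against WT_PBS, 445 for KO_secGAA against KO_PBS and 503 for KO_secGAA against WT_PBS, beside 2867, 481 and 487 with limma. DESeq2 1.42.0, limma voom, other pseudocounts and filters, no scaling, 2 groups in the fit and leaving out each library were the alternatives.

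The labels do not pair the mice. Pairs of libraries correlated at 0.969 to 0.986 within groups and 0.936 to 0.972 between groups. The lowest count behind a member's value was 78 reads, and 3 reads, the floor for a count of 0, stood for 0.196 to 0.277 normalized counts; this covers counting error only. Exonic lengths came from GENCODE M21.

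The members, the pathway lists and the marker lists were chosen with earlier results of these data known. Genes named are the members, Gaa, the other galectins, up to 3 called genes per list, comparison and direction by smallest p, and the 5 genes most correlated with each member. Trim16, Mcoln1, Heatr1, Lyve1 and the 4 mast cell genes, and further values of a named gene in other comparisons, were added after their values were seen.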

Additional observations from a re-analysis of the deposited data

How the results depend on the processing

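Lgals3 and Lgals1 kept their direction and their side of the threshold under all 18 alternatives in KO_PBS against WT_PBS and in KO_secGAA against KO_PBS. Without 1 library at a time, Lgals3 ranged from 3.27 to 3.49 and from -2.75 to -2.18 in these comparisons. In KO_secGAA against WT_PBS it ranged from 0.60 to 1.17. There it passed under 2 of the 18 alternatives, DESeq2 at 0.945 and the fit without 1 of the libraries. Without scaling, the median of all genes moved by 0.305 in KO_PBS against WT_PBS, -0.144 in KO_secGAA against KO_PBS and 0.155 in KO_secGAA against WT_PBS. Relative to that shift Lgals3 was at 3.35, -2.51 and 0.84.

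Differences near 0 changed sign. Without scaling, Lgals3bp was at 0.12 and Lgals9 at 0.204 in KO_PBS against WT_PBS, Lgals9 at -0.082 and Gaa at -0.112 in KO_secGAA against KO_PBS, and Lgals9 at 0.122 in KO_secGAA against WT_PBS, while Lgals8 passed at 0.536 in the first comparison and Lgals4 at 0.91 in the last. Without 1 library, Lgals3bp ranged from -0.402 to 0.062 in KO_PBS against WT_PBS. Lgals9 ranged from -0.249 to 0.122 there, from -0.109 to 0.222 in KO_secGAA against KO_PBS and from -0.188 to 0.184 in KO_secGAA against WT_PBS. Gaa ranged from -0.025 to 0.141 in KO_secGAA against KO_PBS, and Lgals12 from -0.194 to 0.73 in KO_secGAA against WT_PBS.

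Genes called in KO_PBS against WT_PBS numbered 2867, with 1744 to 2847 without 1 library, the lowest without WT_PBS replicate 3, and 4985 without scaling. For KO_secGAA against KO_PBS the 481 calls became 159 to 568, the lowest without KO_secGAA replicate 2, 958 without scaling (10.65% of them higher in KO_secGAA, against 37.21%), 316 with 2 groups in the fit and 798 with DESeq2. For KO_secGAA against WT_PBS the 487 became 94 to 503, the lowest without WT_PBS replicate 3, 1009 without scaling (86.22% higher in KO_secGAA, against 49.08%) and 1022 with DESeq2. The causes were not tested, and some settings also held fewer samples. Division by the longest transcript in place of all exons raised the levels per kilobase and left the order of the members in each group as it was. The settings of the list counts were added after the data were seen. No paired analysis was possible because the labels give the mice no shared numbers, so replicate numbers only name libraries.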
